A study of Homo sapiens with 10 samples.

Results

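H/ACA box and Cajal body small RNAs were measured in THP-1 macrophages treated with the solvent DMSO or with 1 of 3 plant polyphenols. A transcript cluster is the group of array probes that reads a single transcript, and it counted here if its only gene symbol began with SNORA or SCARNA followed by a digit. Genes named as small RNA hosts were left out, and a gene with several such clusters entered through the cluster whose mean over the 10 arrays was highest. This gave 77 genes (61 SNORA and 16 SCARNA) among 21214 clusters with a symbol, from 83 single-symbol clusters. A further 28 clusters carried a SNORA or SCARNA symbol together with another symbol and were not used.

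THP-1 cells come from a human monocytic leukaemia and turn macrophage-like under the phorbol ester PMA. All cells, the controls included, received PMA for 24 h and then DMSO, punicalagin, myricetin or quercetin for 24 h. Punicalagin is an ellagitannin of pomegranate and was given at 10 µM per the study's methods, while myricetin and quercetin are flavonols whose doses the labels do not give. The 10 arrays were DMSO at passages 6, 7 and 8 (n = 3), punicalagin at passages 6, 7 and 8 (n = 3), myricetin at passages 7 and 8 (n = 2) and quercetin at passages 7 and 8 (n = 2). Replicates are numbered in the order of the passages. Nothing states that the passages were independent beyond the passage number, and THP-1 is a single line, so p-values measure the spread between these cultures. Values are log2 intensities after RMA, which corrects background, equalises the intensity distributions of the arrays and summarises the probes of a cluster. Of 8 myeloid markers, 7 (CD68, CSF1R, TYROBP, ITGAM, LYZ, SPI1 and CD14) lay above the array median on all 10 arrays, and CD163 did on 5. Of 11 markers of T cells, B cells, epithelium and fibroblasts, KRT18 and COL1A1 did so on all 10 arrays and 8 did on none. Among all 21214 clusters, 21.1% had their highest value of the 10 arrays on the DMSO array of passage 6, the largest such share. The lowest value fell most often on the punicalagin array of passage 7 (16.2%), then on the DMSO array of passage 6 (14.4%).

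H/ACA small nucleolar RNAs (SNORA) guide the conversion of uridine to pseudouridine in ribosomal RNA, bound to dyskerin, NOP10, NHP2 and GAR1. Small Cajal body RNAs (SCARNA) guide the modification of spliceosomal RNAs in Cajal bodies, nuclear bodies built around coilin, and belong to an H/ACA type, a C/D box type, or a mixed type that carries both kinds of box. Most of these RNAs are cut out of introns of other genes after splicing, so that a probe inside one can also read unspliced host RNA, and the values here cannot tell the forms apart. In bulk RNA, fewer cells of a type and less RNA per cell cannot be told apart either.

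In the RefSeq gene table of GRCh38.p14, matched by gene ID for 77 of 77 genes, each of the 77 lay inside at least 1 longer gene. The table gives the small RNAs no strand, so a spanning gene could lie on the other strand. There were 78 spanning genes, 62 of them protein-coding, and 9 spanned more than 1 of the small RNAs. The RNAs with the clearest changes below were SNORA62, which lay inside RPSA, a ribosomal protein gene that also spans SNORA6, SCARNA5 and SCARNA6, both inside ATG16L1, an autophagy gene, and SCARNA10, inside NCAPD2, a condensin subunit gene. Their promoters are printed here from RefSeq GRCh38.p14. The RNAs would be made from these starts if the spanning gene is the host and this start is used. The first listed start of each gene was taken, where the table held 35116 windows for 27305 genes. Which starts the cells used was not measured. Each promoter shows 250 bases before the annotated start and its first 10 bases, 5′ to 3′ on the + strand. Capitals mark CCGGAAG (the core bound by ETS factors), CCAAT or CACGTG on either strand. RPSA lies at chr3:39406470-39406729, ATG16L1 at chr2:233251423-233251682 and NCAPD2 at chr12:6493852-6494111.
RPSA: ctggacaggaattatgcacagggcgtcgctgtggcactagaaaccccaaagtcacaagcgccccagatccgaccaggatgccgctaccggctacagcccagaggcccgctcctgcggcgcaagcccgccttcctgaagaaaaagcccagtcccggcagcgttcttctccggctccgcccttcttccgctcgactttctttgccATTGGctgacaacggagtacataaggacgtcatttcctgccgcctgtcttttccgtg
ATG16L1: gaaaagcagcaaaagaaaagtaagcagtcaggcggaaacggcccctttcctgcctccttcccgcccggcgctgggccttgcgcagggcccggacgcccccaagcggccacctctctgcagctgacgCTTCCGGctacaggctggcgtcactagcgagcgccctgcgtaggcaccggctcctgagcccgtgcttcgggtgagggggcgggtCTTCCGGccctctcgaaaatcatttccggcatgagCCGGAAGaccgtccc
NCAPD2: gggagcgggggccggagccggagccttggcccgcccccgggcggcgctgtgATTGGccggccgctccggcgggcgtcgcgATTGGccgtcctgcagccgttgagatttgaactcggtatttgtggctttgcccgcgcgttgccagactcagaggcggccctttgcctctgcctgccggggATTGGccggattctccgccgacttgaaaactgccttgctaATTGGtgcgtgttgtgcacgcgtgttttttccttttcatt

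The RPSA promoter held 1 CCAAT match and no CCGGAAG match, ATG16L1 held 3 CCGGAAG matches and no CCAAT match, and NCAPD2 held 4 CCAAT matches and no CCGGAAG match. CCGGAAG occurred in the 300-base window of 17 of the 65 spanning genes with a window in the table (26.2%), against 12.2% of all 27305 genes. CCAAT occurred in 28 of 65 (43.1%, against 39.7%) and CACGTG in 5 of 65 (7.69%, against 8.77%). A start of C followed by 4 further pyrimidines, as in mRNAs of the translation machinery, was found in 18 of 65 spanning genes (27.7%), against 5.14% of all genes, and in 7 of the 7 ribosomal protein genes among them that had a window. These are matches of letters, and no binding was measured.

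SCARNA16 is the only one of the 77 that overlaps a miRNA in the RefSeq table. The hairpin of MIR6516 lies at chr17:77089417-77089497 on the + strand, and 77 of its 81 bases, in capitals, lie within SCARNA16. It is printed because no other sequence of the 77 RNAs was at hand.
MIR6516: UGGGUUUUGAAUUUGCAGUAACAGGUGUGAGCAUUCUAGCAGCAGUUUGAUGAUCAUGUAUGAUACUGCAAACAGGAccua

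The clusters of these small RNAs gave mostly bright but variable signals. Of the 77, 46 had a mean log2 intensity above 6.98, the upper quartile of the clusters tested, and 8 lay below the lower quartile of 4.20. Their means ran from 2.36 (SNORA70F) to 12.16 (SNORA3A). Probes differ in how well they bind, so these intensities do not rank the amounts of the RNAs. Total RNA was extracted with a Qiagen RNeasy Mini Kit per the study's methods. The SNORA RNAs are 123 to 236 bases long (median 134) and the SCARNA RNAs 125 to 421 bases. How fully RNAs this short were recovered was not tested. The pooled SD between arrays of the same group had a median of 0.362 over the 77 small RNAs, 0.280 over 115 SNORD clusters (the C/D box relatives that guide ribose methylation) and 0.188 over all clusters tested. Among clusters at or above the median level it was 0.380 for 59 of the small RNAs and 0.206 for all 10607 clusters. Of the 5 clusters with the highest means, SNORA24 stayed between 11.32 and 11.80 on the 10 arrays, SNORA68 between 10.59 and 11.21 and SNORA71A between 10.70 and 11.39. SNORA23 ran from 10.86 to 12.53 and SNORA3A from 11.07 to 13.09, with the highest value of both on the punicalagin array of passage 7. None of these 5 passed the test in any comparison.

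Quercetin gave the clearest changes. SNORA62, SCARNA5, SCARNA10 and SCARNA6 were lower than in DMSO and no small RNA of the 77 was higher at an adjusted p under 0.05 (limma, adjusted over all 21214 clusters). These were 4 lower calls of 77, where 1.13% of all clusters were called lower, 2.80% higher and 3.92% in either direction. The median log2 change was -0.21 over the 77 and -0.04 over all clusters tested, with 54 of the 77 below 0.

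SNORA62, an H/ACA guide RNA, had log2 intensities of 11.93, 11.88 and 11.74 on the DMSO arrays and 9.93 and 9.60 on the quercetin arrays. It read 10.70, 10.04 and 11.39 with punicalagin and 10.48 and 9.83 with myricetin. All arrays of treated cells thus lay below all DMSO arrays, which agreed closely among themselves. The log2 change with quercetin was -2.09 (SE 0.32, 4.25-fold lower, adjusted p = 0.00334 by limma). Over 19 alternative settings it stayed between -2.25 and -1.92 with an adjusted p from 1.19e-04 to 0.0730, and the only setting that ended the call left out quercetin replicate 2.

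SCARNA10, a mixed-type guide for the U5 spliceosomal RNA, read 8.49, 8.90 and 8.88 with DMSO and 7.46 and 7.31 with quercetin. Its values were 8.05, 8.21 and 8.25 with punicalagin and 8.10 and 8.20 with myricetin. The quercetin arrays were the lowest of the 10, and the punicalagin and myricetin arrays lay between them and the DMSO arrays without overlap. The log2 change with quercetin was -1.38 (SE 0.16, 2.60-fold lower, adjusted p = 5.26e-04 by limma), and all 19 alternatives gave an adjusted p between 6.24e-06 and 0.0167.

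SCARNA5 and SCARNA6, the mixed-type RNAs inside ATG16L1, were also lower with quercetin. SCARNA5 read 9.28, 10.02 and 9.37 with DMSO, 9.31, 9.14 and 10.13 with punicalagin, 9.28 and 9.13 with myricetin and 8.08 and 8.10 with quercetin. SCARNA6 read 9.41, 9.48 and 8.68 with DMSO, 9.45, 9.20 and 9.38 with punicalagin, 8.73 and 8.39 with myricetin and 8.13 and 8.24 with quercetin. In both RNAs the quercetin arrays lay below the other 8 arrays, while the punicalagin arrays overlapped the DMSO arrays. The log2 change was -1.47 for SCARNA5 (SE 0.28, adjusted p = 0.0130) and -1.00 for SCARNA6 (SE 0.22, adjusted p = 0.0293), both by limma. Both calls rested on both quercetin arrays: without replicate 1 or 2 the adjusted p was 0.130 or 0.134 for SCARNA5 and 0.245 or 0.196 for SCARNA6, and without DMSO replicate 2 it was 0.0871 for SCARNA6. Over all alternatives it ran from 3.14e-04 to 0.134 for SCARNA5 and from 0.00209 to 0.245 for SCARNA6.

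**Figure D1:**
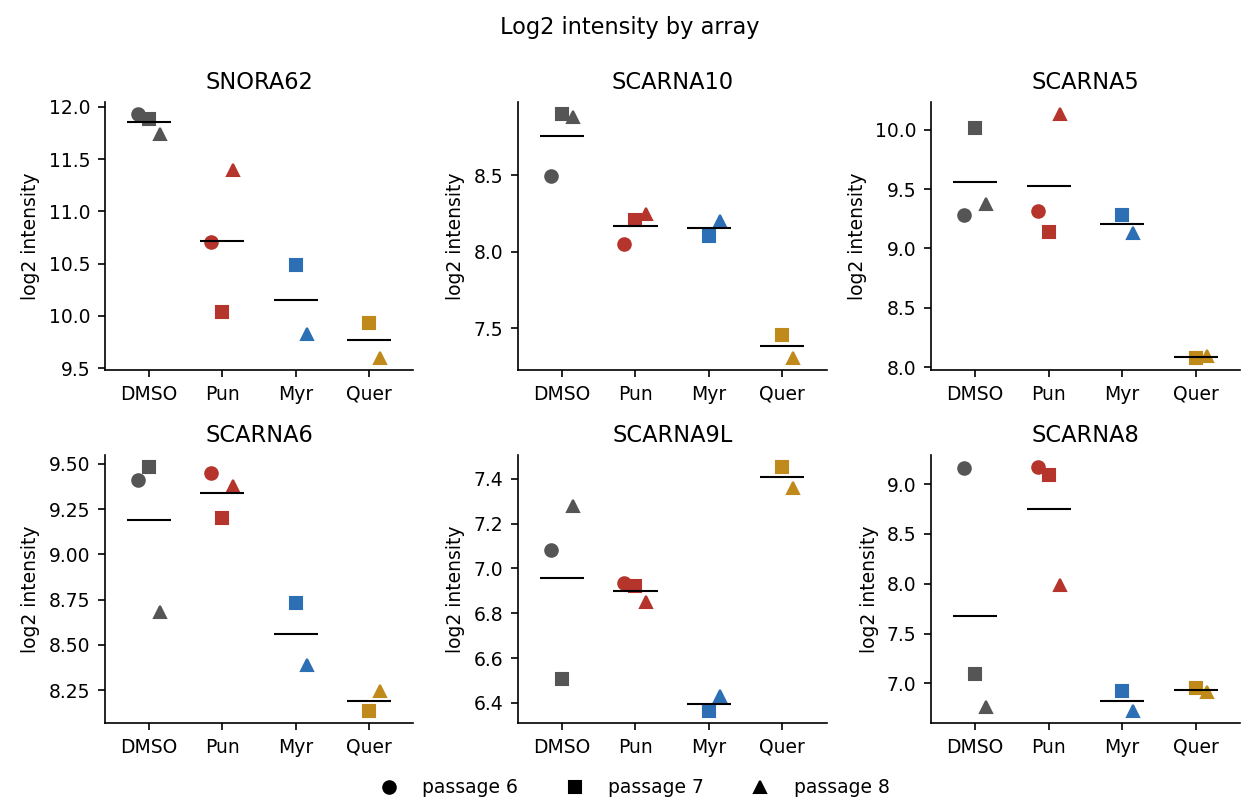
Log2 intensity of 6 small RNAs on each of the 10 arrays, by treatment (DMSO, punicalagin, myricetin, quercetin). Each point is an array, its shape gives the passage and the line is the group mean. SNORA62 read 11.74 to 11.93 with DMSO and 9.60 to 9.93 with quercetin, and SCARNA10, SCARNA5 and SCARNA6 had their lowest values with quercetin.

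These 3 SCARNA RNAs are of the mixed type. Of the 4 mixed-type RNAs on the list, 3 were called lower with quercetin and the other, SCARNA12, changed by -0.28 (SE 0.21, adjusted p = 0.633 by limma) with values that overlapped DMSO. Of the 3 measured RNAs on a list of C/D box SCARNA RNAs none was called. That list did not hold SCARNA9L, a relative of SCARNA9, and the SCARNA RNAs of the H/ACA type were not counted as a type. SCARNA7 read 10.11, 10.76 and 10.29 with DMSO and 9.74 and 9.88 with quercetin, a change of -0.58 (SE 0.23, adjusted p = 0.249 by limma, 0.0252 to 0.749 over the alternatives), while SCARNA9 changed by 0.26 and SCARNA17 by 0.17. The difference between the types was not tested. In the other direction the largest values with quercetin were 0.53 for SNORA38B, 0.45 for SCARNA9L and 0.37 for SNORA22, none past the threshold (adjusted p of 0.876, 0.309 and 0.384 by limma). SNORA20, inside the chaperonin gene TCP1, was just outside the threshold and is named after its values were seen. It read 11.06, 10.97 and 10.53 with DMSO, 10.09 and 9.72 with quercetin and 10.01 and 9.74 with myricetin, and changed by -0.95 with quercetin (SE 0.24, adjusted p = 0.0533 by limma). It passed without DMSO replicate 3 (0.0360) or punicalagin replicate 3 (0.0185), in a range of 0.00987 to 0.480.

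With myricetin SNORA62 alone was called, by limma over all clusters. Its log2 change was -1.70 (SE 0.32, 3.24-fold lower, adjusted p = 0.0460). This was 1 lower call of 77, where 0.0707% of all clusters were called lower and 0.509% in either direction. The direction was the same in all 19 alternatives, with changes of -2.03 to -1.37, but the adjusted p ran from 0.00422 to 0.628 and stayed under the threshold in 8. It was 0.192 and 0.628 without myricetin replicates 1 and 2, 0.146 and 0.0595 without DMSO replicates 2 and 3, 0.0909 without punicalagin replicate 1, and 0.0897 without either quercetin replicate, in an estimate of spread that the 4 groups share.

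Most of the 77 nevertheless read lower with myricetin than with DMSO. The median log2 change was -0.21, against 0.00 over all clusters, and 62 of the 77 were below 0. The 77 share a labelling chemistry and are not independent, so these counts are descriptions. Their median deviation from each RNA's mean over the 10 arrays was 0.23, 0.13 and -0.14 on the DMSO arrays of passages 6, 7 and 8. At passages 7 and 8 it was -0.15 and -0.22 with myricetin and -0.11 and -0.17 with quercetin. Between arrays of a group this median had a pooled SD of 0.151. At an unadjusted p under 0.05, 14 of the 77 (18.2%) were lower and none higher, where the share over all clusters was 3.50% lower and 5.12% higher. In 25 of the 77 (32.5%) both myricetin arrays lay below all DMSO arrays, against 10.4% of all clusters, and in 2 both lay above them, against 13.3%. Without DMSO replicate 1, the array with the most highest values over all clusters, the median was -0.16. It was -0.37 without DMSO replicate 3. The lower values were not particular to the 77. Among 15 other small noncoding RNAs of polymerases II and III, 14 were below 0 with myricetin, with a median of -0.50. That value leaned on the DMSO array of passage 6, a passage without a myricetin array. The median deviation of the 15 was 0.68, 0.11 and -0.40 on the DMSO arrays of passages 6, 7 and 8. On the myricetin arrays it was -0.37 and -0.35. In 3 of the 15 (20%) both myricetin arrays lay below all DMSO arrays. In the 115 SNORD clusters 66 changes with myricetin were below 0, with a median of -0.03. With quercetin, compared with the same 3 DMSO arrays, 21 of the 77 (27.3%) lay below all DMSO arrays against 17.2% of all clusters, and 11 of the 77 (14.3%) were lower at an unadjusted p under 0.05 against 6.86%.

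After SNORA62, the largest falls in value with myricetin were in SNORA28 and SNORA41, neither past the threshold. SNORA28, inside the translation initiation factor gene EIF5, read 5.49, 6.64 and 6.47 with DMSO and 4.69 and 4.72 with myricetin. Its change was -1.50 (SE 0.46, adjusted p = 0.289 by limma). It was 5.43, 7.36 and 6.24 with punicalagin and 5.78 and 5.62 with quercetin, so the myricetin arrays were the lowest of the 10. On the arrays of passages 7 and 8 the change was -1.85 (adjusted p = 0.0110), and over its 19 alternatives the adjusted p ran from 0.00592 to 0.950.

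SNORA41, inside the elongation factor gene EEF1B2, read 5.09, 5.41 and 4.95 with DMSO, 3.93 and 3.63 with myricetin, 4.02, 4.21 and 6.24 with punicalagin and 5.02 and 4.61 with quercetin. The myricetin arrays were the lowest of the 10, and the punicalagin arrays lay on both sides of the DMSO arrays. Its change with myricetin was -1.37 (SE 0.50, adjusted p = 0.433 by limma), and without punicalagin replicate 3, the array at 6.24, the adjusted p was 0.0121 (0.0121 to 1.00 over the alternatives). SCARNA16, which overlaps the MIR6516 hairpin printed above and is named for that reason, read 8.12, 8.54 and 7.67 with DMSO and 7.18 and 7.06 with myricetin, a change of -0.99 (SE 0.28, adjusted p = 0.223 by limma). SCARNA10 changed by -0.60 with myricetin (SE 0.16, adjusted p = 0.171 by limma) and passed without DMSO replicate 1 (adjusted p = 0.0223, in a range of 0.0112 to 0.801). The largest values above DMSO were 0.45 for SNORA29, 0.36 for SNORA16B and 0.32 for SNORA38B, with an adjusted p of 0.606, 0.892 and 0.974 by limma. Without DMSO replicate 1 SNORA16B and SNORA38B were at -0.07 and -0.16.

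**Figure D2:**
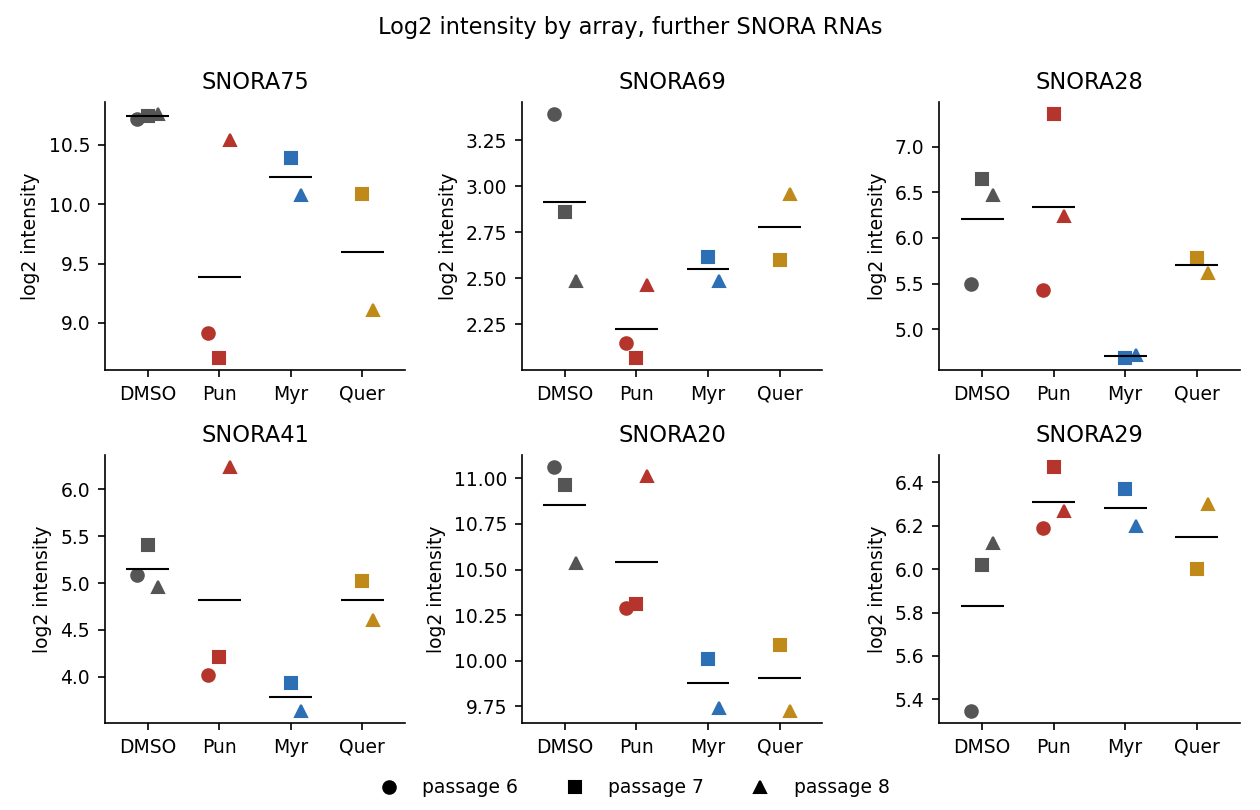
Log2 intensity of 6 further SNORA RNAs on each of the 10 arrays, by treatment. Each point is an array, its shape gives the passage and the line is the group mean. SNORA28 was lowest on the myricetin arrays (4.69 and 4.72), SNORA75 was tight with DMSO (10.71 to 10.76) and spread from 8.71 to 10.54 with punicalagin.

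Myricetin differs from quercetin by an additional hydroxyl group on the B ring. The doses of both are unstated, so the comparison between them is of these arrays as labelled. By limma, SCARNA10 was higher and SCARNA9L lower with myricetin than with quercetin, which is 1 of the 77 in each direction, where 0.537% of all clusters were called higher, 1.16% lower and 1.70% in either direction. The difference in SCARNA10 was 0.77 (95% interval 0.40 to 1.15, adjusted p = 0.0483). SCARNA9L, a relative of SCARNA9 that lies inside EIF1AX, read 6.36 and 6.43 with myricetin, 7.45 and 7.36 with quercetin, 7.08, 6.51 and 7.28 with DMSO and 6.93, 6.92 and 6.85 with punicalagin. The myricetin arrays were the lowest and the quercetin arrays the highest of the 10. The difference was -1.01 (95% interval -1.48 to -0.54, adjusted p = 0.0412).

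Neither call held throughout. In SCARNA10 the adjusted p passed in 7 of 18 alternatives (9.53e-04 to 0.362) and was above the threshold without any one of the 4 flavonol arrays (0.224 to 0.362), without DMSO replicate 2 (0.0565) and without punicalagin replicate 1, 2 or 3 (0.0658, 0.0618 and 0.0576). In SCARNA9L it passed in 9 of 18 (0.00146 to 0.294), and was above the threshold without any one of the 4 flavonol arrays (0.231 to 0.294) and without punicalagin replicate 1, 2 or 3 (0.0652, 0.0593 and 0.0511). SCARNA9L has 2 clusters, and over their mean the difference was -0.70 (adjusted p = 0.0519). SCARNA5 differed by 1.12 (95% interval 0.44 to 1.79, adjusted p = 0.105) and reached the threshold without punicalagin replicate 3 (0.0365, in a range of 0.00325 to 0.455). SNORA62 differed by 0.39 with an interval of -0.38 to 1.16 (adjusted p = 0.736), which leaves differences in either direction possible. The other extremes were -1.04 for SNORA41 (adjusted p = 0.483), -0.99 for SNORA28 (0.453) and 0.65 for SNORA3A (0.659). SNORA41 passed without punicalagin replicate 3 (adjusted p = 0.0351, in a range of 0.0351 to 0.920).

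With punicalagin none of the 77 passed at an adjusted p under 0.05 by limma, where 2.33% of all clusters were called. At an unadjusted p under 0.05, 5 were higher and 5 lower, together 13.0% of the 77. Of all clusters 7.34% were higher and 4.94% lower, together 12.3%. After Benjamini-Hochberg adjustment the methods' t-test called none of the 77 and none of all 21214 clusters, and at an unadjusted p under 0.05 it had 3 of the 77 (3.90%) against 10.7% of all clusters. The median log2 change was 0.09, against -0.05 over all clusters, with 45 of the 77 above 0. It was -0.03 without DMSO replicate 3 and -0.02 without punicalagin replicate 3. All 3 punicalagin arrays lay above all DMSO arrays in 4 of the 77 (5.19%, against 8.39% of all clusters) and below them in 6 (7.79%, against 9.15%).

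**Figure D3:**
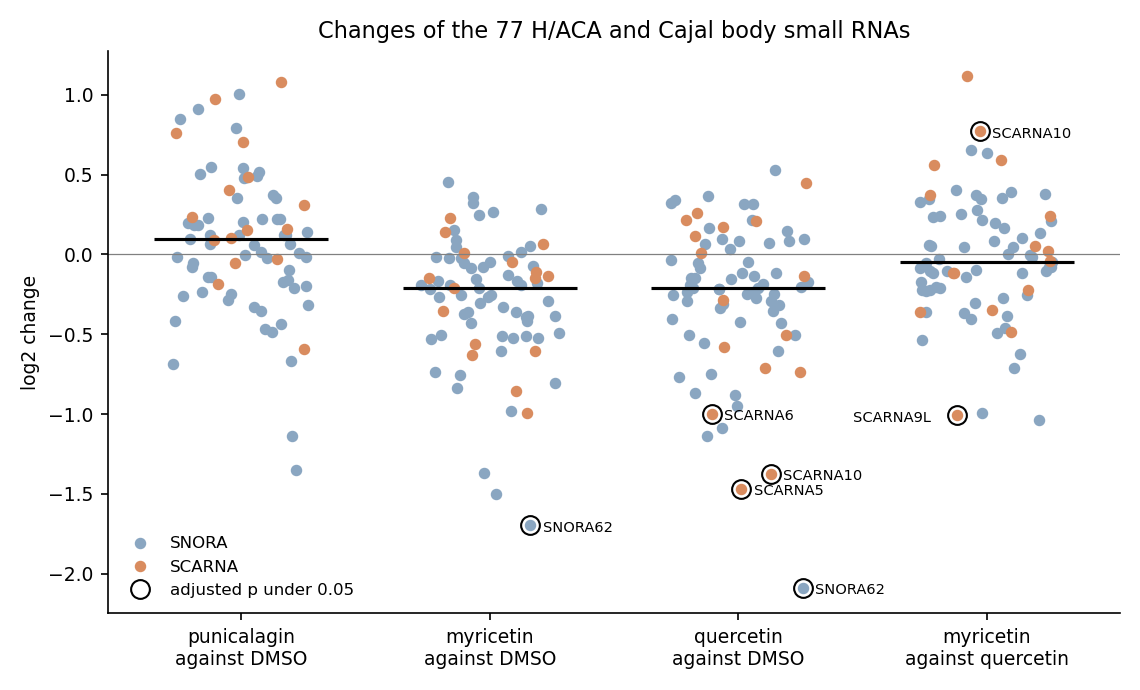
Log2 change of each of the 77 small RNAs (points, SNORA and SCARNA by colour) in 4 comparisons, with the median as a line and an open circle around RNAs with an adjusted p under 0.05 (limma). The medians were 0.09 for punicalagin and -0.21 for both myricetin and quercetin against DMSO, and -0.04 for myricetin against quercetin.

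SNORA75, the H/ACA RNA inside the nucleolin gene NCL, had the largest value below DMSO. It read 10.71, 10.74 and 10.76 with DMSO and 8.91, 8.71 and 10.54 with punicalagin, and 10.39 and 10.07 with myricetin and 10.09 and 9.11 with quercetin. All treated arrays lay below the 3 DMSO arrays, which spanned the narrowest range. The change was -1.35 (SE 0.41, adjusted p = 0.166 by limma), and without punicalagin replicate 3 it was -1.93 (adjusted p = 0.00215, in a range of 0.00215 to 0.539). SNORA62 changed by -1.14 (SE 0.29, adjusted p = 0.0994 by limma), lower in 3 of 3 passages. Without punicalagin replicate 3 its change was -1.48 (adjusted p = 0.0147, in a range of 0.0147 to 0.450), and in a fit with all 10 arrays the adjusted p was 0.0460. SNORA69 changed by -0.69 (SE 0.23, adjusted p = 0.232), at intensities of 2.07 to 3.39 that lie below the lower quartile of the arrays. SCARNA10 changed by -0.59 (SE 0.16, adjusted p = 0.119), with all punicalagin arrays below all DMSO arrays, and without DMSO replicate 1 it passed (adjusted p = 0.0333, in a range of 0.0175 to 0.403).

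The largest value above DMSO was in SCARNA8, a Cajal body RNA inside HAUS6. It read 9.16, 7.10 and 6.76 with DMSO, 9.17, 9.09 and 7.99 with punicalagin, 6.92 and 6.72 with myricetin and 6.95 and 6.92 with quercetin. The DMSO array of passage 6 was as high as the punicalagin array of that passage, and the other DMSO arrays lay with the flavonol arrays. The change was 1.08 (SE 0.58, adjusted p = 0.532 by limma), higher at passages 7 and 8 and level at passage 6 (9.17 against 9.16). Without DMSO replicate 1, the array with the most highest values over all clusters, the change was 1.82 (adjusted p = 0.0206 by limma). In the arrays of passages 7 and 8 it was 1.61 (adjusted p = 0.0149 by limma). Over 16 alternatives the adjusted p ran from 0.0149 to 0.808. SNORA74A, inside SNHG4 and MATR3, read 8.04, 7.30 and 6.72 with DMSO and 8.30, 9.20 and 7.56 with punicalagin, a change of 1.00 (SE 0.43, adjusted p = 0.382). SCARNA14 changed by 0.97 (SE 0.43, adjusted p = 0.405), and in both RNAs the groups overlapped.

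Single arrays carried much of the pattern. The punicalagin array of passage 7 held the highest of the 10 values in 27 of the 77 (35.1%), against 13.2% of all clusters, and that of passage 8 in 17 (22.1%, against 6.67%), while that of passage 6 did so in 3 (3.90%, against 6.19%). The DMSO array of passage 6 held the highest value in 15 (19.5%), near the 21.1% of all clusters. The myricetin arrays of passages 7 and 8 held it in 1 and 0 (against 7.63% and 8.65% of all clusters), and the quercetin arrays in 5 and 0 (against 8.4% and 6.38%). The lowest of the 10 values fell on the DMSO array of passage 8 in 14 (18.2%, against 8.60%), on the myricetin arrays in 6 and 13 (7.79% and 16.9%, against 4.16% and 6.08%) and on the quercetin arrays in 7 and 12 (9.09% and 15.6%, against 9.42% and 8.43%). SNORA38B shows the width of this spread: it read 7.18, 8.87 and 8.37 with DMSO and 6.75, 10.92 and 9.30 with punicalagin, and its change of 0.85 had an SE of 0.89. What set single arrays apart was not tested.

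**Figure D4:**
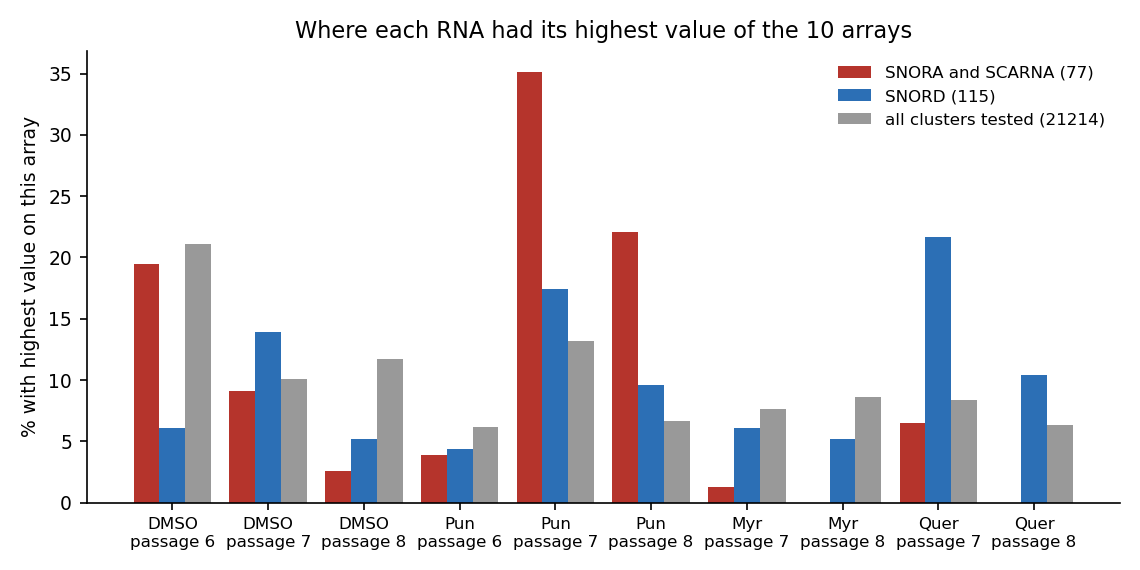
Share of genes whose highest value of the 10 arrays fell on each array, for the 77 SNORA and SCARNA RNAs, 115 SNORD clusters and all 21214 clusters tested. The punicalagin array of passage 7 held 35.1% of the highest values of the SNORA and SCARNA RNAs and 13.2% of those of all clusters.

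The proteins that bind or mature these RNAs showed no call in any comparison by limma. Of the measured genes, 11 encode particle and assembly proteins, among them NOP58 and fibrillarin (FBL), which belong to the C/D box particle, 16 Cajal body proteins and 10 enzymes of 3′ end processing. At an unadjusted p under 0.05 the first list had 2 lower with punicalagin (18.2%, against 4.94% of all clusters), 1 lower with myricetin (9.09%, against 3.50%) and 1 higher with quercetin (9.09%, against 7.95%). The second had 2 lower with punicalagin (12.5%) and none with myricetin or quercetin, and the third had none in these 3 comparisons. DKC1, which encodes the pseudouridine synthase dyskerin, read 6.71, 6.86 and 6.69 with DMSO and 7.14 and 7.22 with quercetin, above all other arrays, with a change of 0.42 (SE 0.17, adjusted p = 0.255). It changed by -0.06 with punicalagin and by -0.03 with myricetin. COIL, which encodes coilin, changed by 0.03 with punicalagin, 0.14 with myricetin and 0.09 with quercetin (adjusted p of 0.970, 0.923 and 0.885).

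Of the 78 spanning genes, 55 had a cluster of their own symbol, and these spanned 64 of the 77 RNAs. By limma 1 of the 55 (1.82%) was called with punicalagin, none with myricetin and 1 (1.82%) with quercetin, where the shares of all clusters were 2.33%, 0.509% and 3.92%, and their median changes were -0.11, -0.04 and 0.08. RPSA had no such cluster. ATG16L1, around SCARNA5 and SCARNA6, read 6.61, 7.61 and 7.57 with DMSO and 7.07 and 6.88 with quercetin. It changed by -0.29 (SE 0.26, adjusted p = 0.725 by limma). The quercetin values lay within the DMSO range only through the DMSO array of passage 6, a passage without a quercetin array. Quercetin lay below DMSO at passage 7 (7.07 against 7.61) and at passage 8 (6.88 against 7.57). NCAPD2, around SCARNA10, read 6.08, 6.20 and 6.56 with DMSO and 5.68 and 5.72 with quercetin, below all DMSO arrays, and changed by -0.58 (SE 0.19, adjusted p = 0.147). The difference between a small RNA and its spanning gene was not tested.

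**Figure D5:**
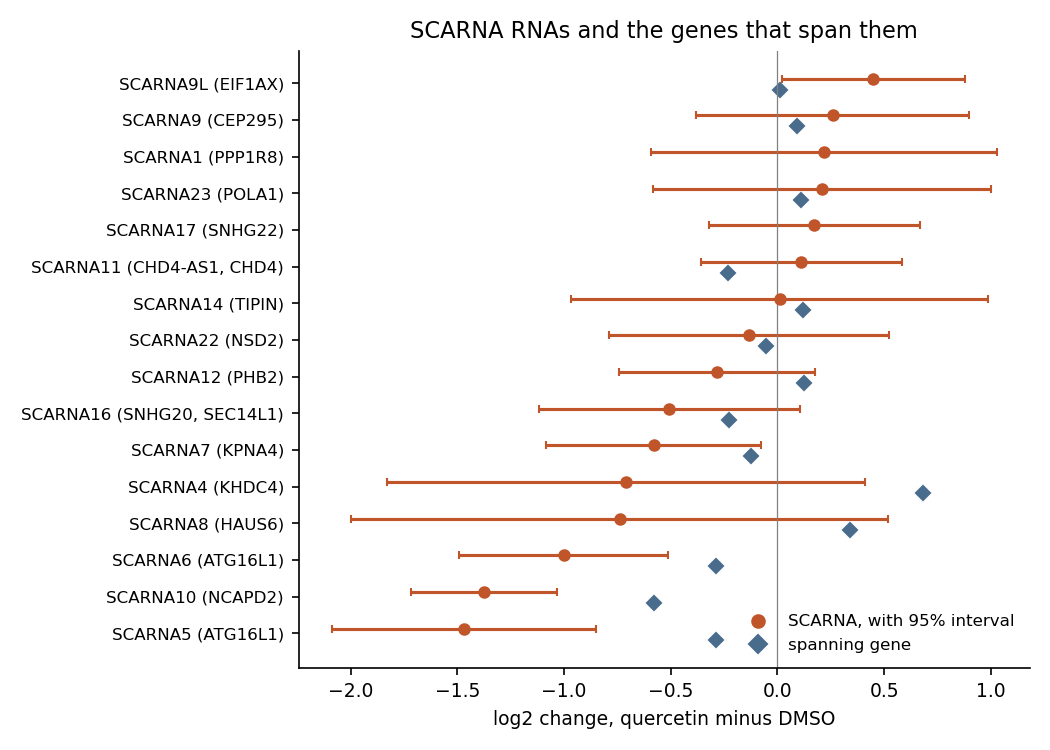
Log2 change with quercetin against DMSO for the 16 SCARNA RNAs (circles, with the 95% interval of limma) and for the genes that span them where measured (diamonds, names in brackets). SCARNA5, SCARNA10 and SCARNA6 lay at -1.47, -1.38 and -1.00, and their spanning genes ATG16L1 and NCAPD2 at -0.29 and -0.58.

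The spanning gene called with quercetin was SNHG17, a noncoding RNA gene that spans SNORA71A, SNORA71C and SNORA71D. It read 6.41, 7.54 and 7.13 with DMSO and 8.10 and 8.11 with quercetin, a change of 1.08 (SE 0.27, adjusted p = 0.0492). The 3 RNAs inside it changed by -0.19, -0.43 and -0.50 (adjusted p of 0.778, 0.394 and 0.444). The call held in 8 of 19 alternatives (adjusted p of 0.00730 to 0.320) and was lost without DMSO replicate 3 (0.0830), without punicalagin replicate 1 or 2 (0.0739 and 0.0706), and without any one of the flavonol arrays (0.0846 to 0.320). TAF1D, a host of other SNORA RNAs that are not among the 77, was higher by 0.77 (SE 0.14, adjusted p = 0.00863), and lost the call without quercetin replicate 1 or 2 (0.141 and 0.0739, in a range of 0.00154 to 0.141). With punicalagin the gene called was POR, which spans SNORA14A and encodes cytochrome P450 reductase. It was higher by 1.07 (SE 0.19, adjusted p = 0.0245), and lost the call without DMSO replicate 2 or 3 (0.115 and 0.0759) or punicalagin replicate 1 or 2 (0.131 and 0.114), in a range of 0.00469 to 0.271.

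RNAs that shared a spanning gene did not always share their values. Within RPSA, SNORA6 changed by -0.81 with myricetin and -0.55 with quercetin (adjusted p of 0.677 and 0.660), where SNORA62 changed by -1.70 and -2.09. SNORA6 read 8.71, 7.20 and 6.71 with DMSO, 6.98 and 6.48 with myricetin and 6.88 and 7.09 with quercetin, so that its groups overlapped. Within TCP1, SNORA20 changed by -0.98 with myricetin and -0.95 with quercetin, and SNORA29 by 0.45 and 0.32. Within TBRG4, SNORA5A changed by 0.91 with punicalagin, SNORA5B by -0.17 and SNORA5C by 0.18, none past the threshold.

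Of 115 SNORD clusters, the C/D box relatives, 4 (3.48%) were called higher and none lower with quercetin by limma, where 2.80% of all clusters were called higher and 1.13% lower. Their median change was 0.13, and none was called with myricetin or punicalagin (medians of -0.03 and -0.02). Among 15 other small noncoding RNAs of polymerases II and III, RNU2-1, the U2 spliceosomal RNA that Cajal body RNAs help to modify, was called lower with quercetin. It read 12.82, 13.26 and 12.61 with DMSO, 12.05 and 11.97 with quercetin and 12.08 and 11.98 with myricetin. The change with quercetin was -0.89 (SE 0.18, adjusted p = 0.0202) and with myricetin -0.87 (SE 0.18, adjusted p = 0.0766), and the arrays of both flavonols lay below the 3 DMSO arrays. The quercetin call was lost without either quercetin array (0.144 and 0.217, in a range of 0.00158 to 0.217). TERC, the telomerase RNA, which also carries an H/ACA domain, changed by 0.04, -0.50 and 0.03 with punicalagin, myricetin and quercetin and was not called.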

How the data were processed

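The deposited series matrix held log2 intensities that the authors computed by RMA from Affymetrix Human Gene 1.0 ST arrays. Tools listed in the submitters' processing notes are Partek 7.0 and Affymetrix Expression Console. The sources do not say if RMA was run on all 10 arrays at once, and the genome build of the probes is not given in the sources used here. No normalization or filter was added. Symbols came from a probe table: of 33297 clusters, 19460 had 1 symbol, 1754 several and 12083 none.

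Differences were fitted with limma 3.58.1 in R 4.3.3 (lmFit, eBayes) and adjusted by Benjamini-Hochberg over the 21214 clusters with a symbol, with a threshold of 0.05. The 6 DMSO and punicalagin arrays gave the fit for punicalagin, and myricetin and quercetin were fitted on all 10 with a shared spread. Fits were tested on simulated data. The number of arrays limits the precision. The small RNAs, gene lists and tests were chosen with earlier results of these data known. Genes named are the markers SNORA62 and SCARNA8, all called RNAs, the 3 largest rises and falls of a comparison, the 5 highest means, and called genes of the lists with DKC1 and COIL; SCARNA7, SCARNA9, SCARNA12, SCARNA16, SCARNA17, SNORA5A to SNORA5C, SNORA20 and TERC were chosen after their values were seen, and the rest span or share a spanning gene with a named RNA. Alternatives were a passage block, trend with robust estimation, array weights, all clusters, brighter clusters, median centring and cluster means. Others were passages 7 and 8, all arrays in 1 fit, an equal-variance t-test, and leaving out each array. The fits on only the 2 groups compared were added after seeing the data. Promoters and miRNAs came from RefSeq GRCh38.p14 tables.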

Additional observations from a re-analysis of the deposited data

How the results depend on the processing

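Of 1047 single-gene values under the alternatives, 919 kept their direction and side of the threshold, 64 fell short of it, 29 passed it anew and 35 changed sign. All 35 were of genes not called under either setting. Their lowest adjusted p was 0.783 under the alternatives and 0.658 under the main setting (SCARNA8 with quercetin, by limma). The numbers of the 77 small RNAs called moved most. With array weights they were 2 for punicalagin, 5 for myricetin, 9 for quercetin and 8 for myricetin against quercetin, where 4.48%, 2.51%, 12% and 12.1% of all clusters were called. On the arrays of passages 7 and 8 they were 5 for punicalagin, 2 for myricetin and 7 for quercetin, where the shares were 4.22%, 1.70% and 7.58%. With all clusters of the table tested they were 0 for myricetin and 0 for myricetin against quercetin, where 0.15% and 0.466% of all clusters were called. All 10 arrays in 1 fit gave 2 for punicalagin, against 4.78% of all clusters. Only the arrays of the 2 groups compared gave 0 for myricetin, against 0.033% of all clusters. Trend with robust estimation, arrays centred on their median and the mean of the clusters of a gene each gave 1 for myricetin against quercetin. The shares of all clusters there were 1.73%, 1.48% and 1.75%. Leaving out each array in turn gave 0 to 3 for punicalagin, where 0.599% to 3.11% of all clusters were called. The numbers for the flavonols moved as well, and so did the shares of all clusters. Without 1 DMSO or punicalagin array these shares were 0.259% to 1.58% for myricetin and 3.04% to 7.73% for quercetin. For myricetin against quercetin they were 1.24% to 4.67%. Fits without a flavonol array left 1 array in that group and are not counted here. The median change with myricetin ranged from -0.37 to -0.16. The cause of these moves was not tested.

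Passages were not treated as pairs in the main fits. Deviations of DMSO and punicalagin arrays of the same passage correlated at 0.362, -0.0967 and 0.319, and those of different passages at -0.442 to 0.331. So few values do not settle whether pairing was needed. No myricetin or quercetin array was of passage 6, so passage was not balanced against DMSO in their fits. With passage as a replicate block 0 were called for punicalagin and 2 for myricetin against quercetin, where 2.80% and 3.31% of all clusters were called. For myricetin 1 was called (against 1.07% of all clusters), SNORA28 in place of SNORA62, whose adjusted p was 0.0683 by limma. Quercetin had 5 (against 4.75%), the same 4 and SCARNA7 (adjusted p = 0.0347 by limma). SNHG17 with quercetin had an adjusted p of 0.0510 by limma. Values that changed sign were, with array weights, -0.20 for SNORA3A and -0.038 for SNORA71A (punicalagin), 0.10 for SNORA23, -0.051 for SNORA71A and -0.037 for SNORA38B (myricetin) and -0.037 for SNORA24 (quercetin). With the passage block they were -0.10 for SNORA71A and -0.48 for SNORA38B (myricetin), and -0.053 for SNORA24 and -0.27 for SNORA38B (quercetin). On passages 7 and 8 they were 0.18 for SNORA23, -0.074 for SNORA71A, -0.16 for SNORA38B and -0.072 for SNORA16B (myricetin), and 0.0074 for SCARNA8 and -0.049 for SNORA24 (quercetin). Leaving out each array, ranges that crossed 0 were, with punicalagin, -0.42 to 0.59 for SNORA3A, -0.021 to 0.17 for SNORA68 and -0.029 to 0.30 for SNORA71A. With myricetin they were -0.072 to 0.61 for SNORA16B, -0.24 to 0.18 for SNORA23, -0.21 to 0.060 for SNORA24, -0.16 to 0.69 for SNORA38B and -0.074 to 0.19 for SNORA71A. With quercetin they were -1.19 to 0.0074 for SCARNA8, -0.049 to 0.13 for SNORA24 and -0.24 to 0.011 for SNORA68, and for myricetin against quercetin -0.24 to 0.028 for SNORA24. The arrays carry no detection call, so dim clusters such as SNORA69 could not be set against background.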
